A study of Mus musculus with 4 samples.

Results

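The genes described are 9 brakes of the cell cycle: the cyclin-dependent kinase (CDK) inhibitors Cdkn1a, Cdkn1b, Cdkn2a, Cdkn2b, Cdkn2c and Cdkn2d, and the retinoblastoma family genes Rb1, Rbl1 and Rbl2. They were taken by symbol from an expression table of 23970 gene symbols. All 9 were found, and all 9 were among the 11350 genes tested, which had a mean of at least 1 FPKM (fragments per kilobase of transcript, relative to all mapped fragments in the library) over the 4 libraries. The RNA came from primary keratinocytes of newborn mouse epidermis, grown at passage 0 in low-calcium medium on growth-arrested J2-3T3 mouse fibroblasts, which were taken away before the cells were lysed. The groups were 2 libraries of control cells and 2 of cells deficient in Ovol2, which encodes an epithelial zinc-finger protein that regulates transcription, with no further treatment in either group. The sample titles code the deficient libraries as SSKO, which they do not spell out. The alleles, the way Ovol2 was inactivated and the cells in which it was lost are not given in the sources used here. Nothing there says whether the 2 libraries of a group came from separate animals or cultures, so p-values measure only the spread between these libraries.

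Progress from G1 into S phase depends on cyclin D with Cdk4 or Cdk6 and on cyclin E with Cdk2, which phosphorylate the pocket proteins pRB (from Rb1), p107 (from Rbl1) and p130 (from Rbl2). Unphosphorylated pocket proteins bind E2F transcription factors and hold back the genes of S phase, and p107 or p130 do so within the DREAM complex. INK4 inhibitors (from Cdkn2a to Cdkn2d) bind Cdk4 and Cdk6, while the Cip/Kip inhibitors p21 (from Cdkn1a) and p27 (from Cdkn1b) bind cyclin-CDK complexes more widely. In epidermis, p21 and p27 are known from the exit of keratinocytes from the cycle, and p16 and p19Arf, both made from Cdkn2a, from the limited lifespan of keratinocytes in culture.

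The start regions of 4 transcripts are shown to set Rbl1, the gene that fell, beside its relative Rbl2, and the 2 starts of Cdkn2a, whose transcripts encode different proteins, beside each other. Each window runs 5′ to 3′ on the strand of the gene, from 250 bases before to 50 bases after the start annotated by RefSeq on build GRCm38.p6, and all genes but Rb1 had an entry. Capitals mark a match on either strand to an E2F motif (TTTCCCGC, TTTCGCGC, TTTGCCGC or TTTGGCGC) or to a cell cycle homology region, a DREAM element (TTTGAA). The 2 motifs do not overlap in these windows.
Rbl1, chr2:157204485-157204784, minus strand: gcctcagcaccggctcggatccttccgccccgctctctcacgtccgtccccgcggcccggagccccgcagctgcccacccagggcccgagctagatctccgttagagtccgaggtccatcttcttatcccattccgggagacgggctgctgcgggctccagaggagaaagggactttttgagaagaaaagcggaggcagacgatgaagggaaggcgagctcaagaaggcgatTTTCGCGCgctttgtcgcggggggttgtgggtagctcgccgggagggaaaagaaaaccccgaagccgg
Rbl2, chr8:91069807-91070106, plus strand: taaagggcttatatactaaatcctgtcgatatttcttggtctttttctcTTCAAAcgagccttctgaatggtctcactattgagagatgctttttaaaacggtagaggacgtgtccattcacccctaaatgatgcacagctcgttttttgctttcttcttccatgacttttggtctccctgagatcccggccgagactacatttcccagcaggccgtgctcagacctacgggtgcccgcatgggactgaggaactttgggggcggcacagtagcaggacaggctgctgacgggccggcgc
Cdkn2a, upstream start, chr4:89294570-89294869, minus strand: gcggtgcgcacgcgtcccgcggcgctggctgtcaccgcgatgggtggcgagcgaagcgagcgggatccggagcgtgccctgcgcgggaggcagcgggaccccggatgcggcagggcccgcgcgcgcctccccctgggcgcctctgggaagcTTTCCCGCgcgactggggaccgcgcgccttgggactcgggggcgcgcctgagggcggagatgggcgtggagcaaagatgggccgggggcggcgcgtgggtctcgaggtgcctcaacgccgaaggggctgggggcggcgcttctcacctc
Cdkn2a, downstream start, chr4:89282143-89282442, minus strand: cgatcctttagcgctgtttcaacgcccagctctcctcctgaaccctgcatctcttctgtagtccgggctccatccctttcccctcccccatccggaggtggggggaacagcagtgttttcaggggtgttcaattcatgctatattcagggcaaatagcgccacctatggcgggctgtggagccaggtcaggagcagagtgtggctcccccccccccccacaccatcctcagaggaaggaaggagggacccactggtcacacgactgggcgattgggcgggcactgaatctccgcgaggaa
Of 32851 such windows 2.26% held an E2F match and 17.9% held TTTGAA. These shares were not matched for GC content. The median over all windows was 52.7% GC, against 64.0% for Rbl1 and 77.0% for the upstream start of Cdkn2a. Rbl1 had 1 E2F match, TTTCGCGC, which began 18 bases before the start (position -18). The upstream start of Cdkn2a had TTTCCCGC from position -99. Rbl2 had TTTGAA on the opposite strand, as did Cdkn2b, and the other 7 of the 11 windows of these genes had neither motif. A match is a description of letters, and no binding was measured.

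The basal keratin gene Krt5 had the highest mean of all tested genes, at 2960 and 2762 FPKM in controls 1 and 2 and at 2484 and 2269 FPKM in Ovol2-deficient libraries 1 and 2. The 9 basal keratinocyte markers summed to 6220.5 and 6044.7 FPKM in the controls against 5589.8 and 4842.3 FPKM in the deficient libraries, with 1 called lower in limma, 4 called in the authors' deposited table and 6 lower in both deficient libraries. The 5 immune markers summed to 5.86 and 12.4 FPKM in the controls against 10.1 and 7.65 FPKM in the deficient libraries, and 1 of the 5 was tested. Among them the leukocyte gene Ptprc was at or under 0.0659 FPKM in all 4 libraries. Ovol2 stood at 2.68 and 2.14 FPKM in the controls against 1.45 and 0.941 FPKM in the deficient libraries. The groups did not overlap, and the deficient mean was 49.7% of the control mean. The gene did not pass the test (log2 fold change -0.64, adjusted p = 0.129 in limma). In the authors' deposited table its log2 fold change was -0.36 and its adjusted p 0.441, while the log2 ratio of its FPKM means was -1.01. The cause of that difference was not tested. The altered part of the gene is not known here, so the level of Ovol2 checks the labels only in part. Markers of fibroblasts and of melanocytes differed in summed level between the groups. For scale, 17.4% of all tested genes had an unadjusted p under 0.05, 24.1% were higher and 24% lower in both deficient libraries. The summed level of 18 fibroblast or feeder markers was 504 to 529 FPKM in controls and 712 to 725 FPKM in deficient libraries, with 3 of 15 tested called higher in limma, 14 at an unadjusted p under 0.05, 10 called in the authors' deposited table and all 15 higher in both deficient libraries. For 8 melanocyte markers it was 62.6 to 68.1 and 84.9 to 91.4 FPKM, with 0 of 6 tested called in limma, 4 at an unadjusted p under 0.05, 1 called in the authors' deposited table and all 6 higher in both deficient libraries. For the 8 of 9 markers of suprabasal keratinocytes that were found it was 746 to 1226 and 956 to 1318 FPKM. Those sums overlapped, while 1 of 8 was called higher in limma, 3 had an unadjusted p under 0.05, 3 were higher in both deficient libraries, and the median log2 fold change of 0.89 was above those of the fibroblast (0.50) and melanocyte (0.37) lists. No defining fibroblast or melanocyte marker was at 0 in all 4 libraries. Their part in the results below was not tested. In bulk RNA the number of cells of a type and the level of RNA per cell, in those or in other cells, cannot be told apart.

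Of the 9 genes, Rbl1 fell in the Ovol2-deficient libraries and the other 8 did not pass the test. That is 1 of 9 lower, where 0.511% of all tested genes were called lower and 1.35% were called in either direction. Calls are at an adjusted p under 0.05 in limma on log2(FPKM + 1), with Benjamini-Hochberg adjustment over the 11350 genes. The groups did not overlap for 7 of the 9: Rbl1, Rbl2, Cdkn1b, Cdkn2c and Cdkn2d were lower and Cdkn1a and Rb1 higher in both deficient libraries. Among all tested genes 24% were lower and 24.1% higher in that sense and 48.1% in either direction. The median log2 fold change of the 9 was -0.16, against -0.0014 over all tested genes.

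**Figure D1:**
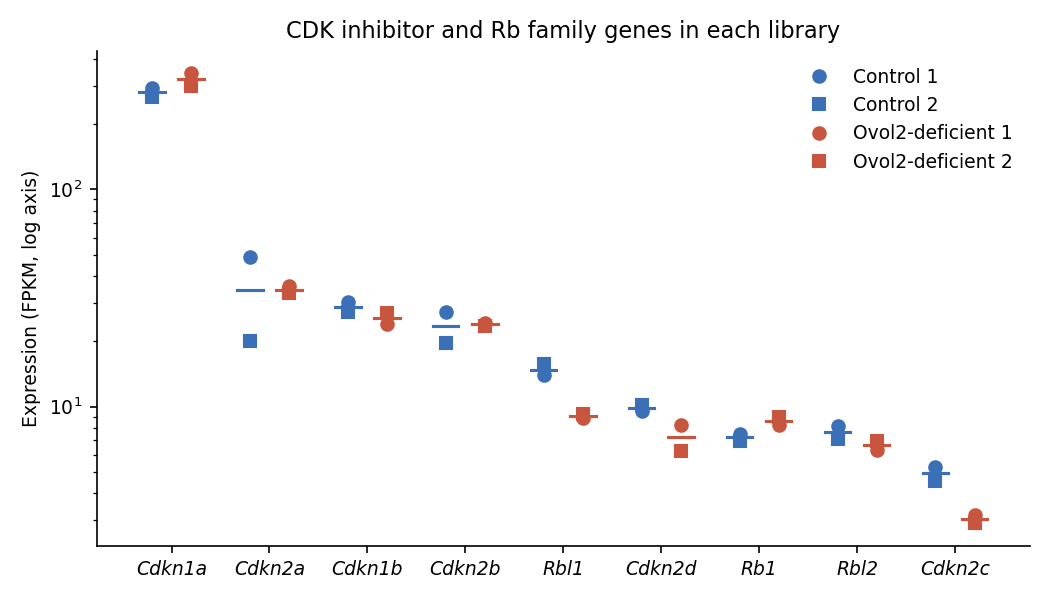
Expression of the 9 genes in each library, on a log axis in FPKM, with controls in blue and Ovol2-deficient libraries in red (circle, library 1; square, library 2; line, mean of 2). Cdkn1a lies above the rest in every library at 266 to 343 FPKM, Cdkn2a spreads widely between the 2 controls, and both red points of Rbl1 and of Cdkn2c lie below both blue ones.

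By level per length, Cdkn1a stood far above the others in every library, with 98.4% of tested genes below its mean of 300.8 FPKM. Cdkn2a (mean 34.5 FPKM), Cdkn1b (27.1) and Cdkn2b (23.7) came next, and neighbours in that order overlapped. Rbl1 (11.9 FPKM) followed, below every value of Cdkn2b, and was above Cdkn2d (8.57) in all 4 libraries although their ranges overlapped. Cdkn2d, Rb1 (7.91) and Rbl2 (7.12) overlapped with each other in sequence. Cdkn2c was the lowest at 3.98 FPKM, with every value under every value of Rbl2. Cdkn1a made up 70.8% and 76.5% of the summed FPKM of the 6 inhibitor genes in the controls against 78.2% and 76.4% in the deficient libraries, so the groups overlapped.

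Rbl1 encodes p107, the pocket protein that accumulates in cycling cells and is itself transcribed under E2F. The gene (ENSMUSG00000027641.13) lies on chromosome 2, from 157145893 to 157204534 on the minus strand of mm10, with 22 exons in its protein-coding transcript. Its level was 14.0 and 15.7 FPKM in controls 1 and 2 and 8.83 and 9.22 FPKM in deficient libraries 1 and 2. Both deficient values lay well below both controls, and the gap between the groups was wider than the gap within either. The means were 14.8 ± 1.18 and 9.03 ± 0.278 FPKM (SD, n = 2 per group), so the deficient level was 60.9% of the control level. On the log2 scale it fell by 0.66 (SE 0.10, adjusted p = 0.0434 in limma). Without control 1 the call held (adjusted p = 0.0250 in limma). It was lost without control 2 (0.0753), without deficient library 1 (0.234) and without deficient library 2 (0.220), while the log2 fold change stayed between -0.73 and -0.58. It was also lost under quantile normalization (adjusted p = 0.0678 in limma), under upper quartile scaling (0.0601), without a variance trend (0.0659) and with no filter on low values (0.224). In the authors' deposited table the log2 fold change of Rbl1 was -0.62 (SE 0.14, adjusted p = 0.000557), the only one of the 9 under 0.05, where 4.43% of the genes with an adjusted p were called and 2.1% were called lower.

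The 3 tested genes whose pattern over the 4 libraries was nearest to that of Rbl1 were Trp53i11, Cenpn and Kif23, with root mean square differences of 0.020, 0.023 and 0.029 on the centred log2(FPKM + 1) scale. The name of Trp53i11, the nearest, refers to induction by p53, while Cenpn encodes a centromere protein and Kif23 a kinesin of cytokinesis. With 4 libraries many genes come this close, and 108 lay within 0.1 of Rbl1.

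Rbl2, which encodes p130, the pocket protein that prevails in resting cells, was at 8.14 and 7.07 FPKM in the controls against 6.32 and 6.95 FPKM in the deficient libraries. Control 2 and deficient library 2 differed little, and the groups were separated by a narrow margin. The log2 fold change was -0.17 (SE 0.12, 95% interval -0.45 to 0.11, adjusted p = 0.521 in limma). Rb1, which encodes pRB, was at 7.49 and 6.95 FPKM in the controls against 8.21 and 9.0 FPKM in the deficient libraries. It was the pocket protein gene with higher values in both deficient libraries, but the difference did not pass (log2 fold change 0.22, SE 0.11, 95% interval -0.03 to 0.48, adjusted p = 0.359 in limma). Rb1 (chromosome 14, 73183673 to 73325822, minus strand, 27 exons) overlaps Lpar6 and Rcbtb2 on the opposite strand, and Gm17233 and Mir687 on the same strand. Rbl2 (chromosome 8, 91070057 to 91123844, plus strand) overlaps Aktip and Gm45464, and Rbl1 overlaps the pseudogene Gm14277 over 360 bases, all on the opposite strand. These are overlaps of whole gene spans, introns included, and shared exons were not sought. The library kit is not stated to keep strand, so reads from any shared exons could not be told apart.

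**Figure D2:**
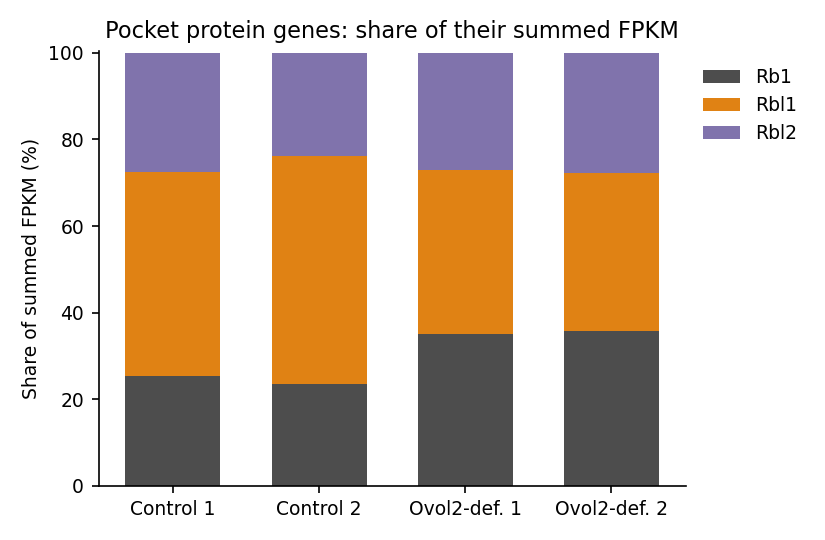
Share of Rb1, Rbl1 and Rbl2 in their summed FPKM, in percent, for each of the 4 libraries. Rbl1 takes 47.2% and 52.8% in the controls against 37.8% and 36.6% in the Ovol2-deficient libraries, while Rb1 takes 25.3% and 23.4%, then 35.1% and 35.7%.

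The make-up of the pocket protein transcripts differed between the groups. Their summed level was 29.6 and 29.7 FPKM in the controls against 23.4 and 25.2 FPKM in the deficient libraries. Rbl1 held 50% ± 3.91 of that sum in controls and 37.2% ± 0.824 in deficient libraries (SD, n = 2 per group). Rb1 held 24.3% ± 1.32 and 35.4% ± 0.432. For Rbl2 the shares overlapped, at 27.5% and 23.8% in the controls against 27.0% and 27.6% in the deficient libraries. Rbl1 stood at 1.87 and 2.25 times the level of Rb1 in the controls, and at 1.08 and 1.03 times in the deficient libraries, where the genes were almost level. The log2 ratio of Rbl2 to Rbl1, taken on FPKM + 1, was -0.71 and -1.05 in the controls against -0.43 and -0.36 in the deficient libraries. Its mean was 0.48 higher in the deficient group, and the groups did not overlap. That difference was 0.65 without control 1 and 0.32 without control 2. Shares of a common sum depend on each other, and the ratios use the same Rbl1 values. These figures therefore include the fall of Rbl1 and are not separate from it. No test was run on these ratios.

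**Figure D3:**
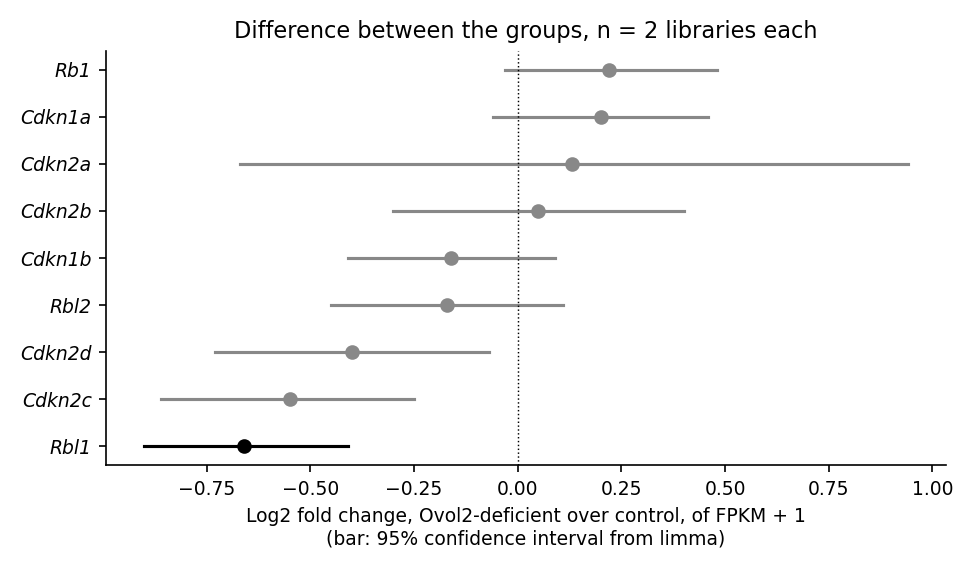
Log2 fold change of each gene, Ovol2-deficient over control, on the log2(FPKM + 1) scale, with the 95% confidence interval from limma (n = 2 libraries per group). Rbl1, in black, is the one that passed, at -0.66; the intervals of Cdkn2c and Cdkn2d also lie below 0 before adjustment over all genes, and that of Cdkn2a is the widest.

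Cdkn2c encodes p18, an INK4 inhibitor whose gene is known to be induced in cycling cells. It lies on chromosome 4, from 109660876 to 109667189 on the minus strand. Its level was 5.29 and 4.57 FPKM in the controls against 3.17 and 2.91 FPKM in the deficient libraries. Both deficient values were below both controls, and the deficient mean was 61.6% of the control mean, close to the figure for Rbl1. The log2 fold change was -0.55 (SE 0.13, 95% interval -0.86 to -0.25), and it did not pass over all genes (adjusted p = 0.0874 in limma). In the authors' deposited table Cdkn2c had a log2 fold change of -0.31 and an adjusted p of 0.592. The log2 ratio of its FPKM means was -0.7. For Rbl1 the same 2 measures were -0.62 and -0.72. Cdkn2c had a mean normalized signal of 66.8 in the deposited table, the lowest of the 9. Read as a count per library, that signal carries a counting error of 12.2%, against 3.88% for Rbl1 at 663 and 1.10% for Cdkn1a at 8251. The 3 genes with the nearest pattern to Cdkn2c were Il2rg, Cnksr1 and Tmem147, at root mean square differences of 0.018 to 0.022.

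Cdkn2d, which encodes the INK4 inhibitor p19Ink4d and lies on chromosome 9 from 21288410 to 21291407 on the minus strand, was at 9.51 and 10.2 FPKM in the controls against 8.28 and 6.26 FPKM in the deficient libraries. Deficient library 2 was the lowest and lay farther from library 1 than the controls lay from each other. The log2 fold change was -0.40 (SE 0.14, 95% interval -0.73 to -0.07), which did not pass (adjusted p = 0.200 in limma). It was -0.58 without deficient library 1 and -0.23 without deficient library 2. Its nearest genes were 4930579G24Rik, Mst1r and Kifc1, with root mean square differences of 0.027 to 0.032. The ratio of Cdkn2c to the proliferation marker Mki67, in FPKM, overlapped between the groups, at 0.300 and 0.237 in the controls against 0.330 and 0.273 in the deficient libraries. Over the same libraries Mki67 fell from 18.4 ± 1.11 to 10.1 ± 0.728 FPKM (SD, n = 2 per group; log2 fold change -0.81, adjusted p = 0.0353 in limma). The ratio of Rbl1 to Mki67 was 0.792 and 0.814 in the controls against 0.919 and 0.867 in the deficient libraries.

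Cdkn2a and Cdkn2b are neighbours on the minus strand of chromosome 4, at 89274471 to 89294653 and 89306299 to 89311039, with 11645 bases between them. Cdkn2a makes p16Ink4a, an INK4 inhibitor, and p19Arf, which stabilizes p53, from different first exons read in different frames. The table listed 2 start sites for the gene and gave 1 value, so the transcripts could not be separated. Its level was 49.0 and 20.0 FPKM in controls 1 and 2 and 36.0 and 33.2 FPKM in deficient libraries 1 and 2. The highest and the lowest value were both controls, 2.45-fold apart, and the deficient libraries lay between them. Only 0.564% of tested genes had as wide a gap between the controls on the log2(FPKM + 1) scale. The group means were 34.5 ± 20.5 and 34.6 ± 1.96 FPKM (SD, n = 2 per group), and they differed by 0.13 on the log2 scale (SE 0.34, 95% interval -0.67 to 0.94, adjusted p = 0.892 in limma). The direction depended on which control was kept. Without control 1 the log2 fold change was 0.76 and passed (adjusted p = 0.0206 in limma), and without control 2 it was -0.49 (adjusted p = 0.0990). The genes with the nearest pattern to Cdkn2a were Hes1, a Notch target, Psors1c2 and BC100530, at root mean square differences of 0.049, 0.069 and 0.071. Hes1 was at 298.8 and 129.2 FPKM in the controls against 227.5 and 224.3 FPKM in the deficient libraries.

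Cdkn2b, which encodes p15, an INK4 inhibitor induced by TGF-beta, showed the same order of libraries with a narrower spread. It stood at 27.3 and 19.6 FPKM in controls 1 and 2 and at 24.3 and 23.6 FPKM in deficient libraries 1 and 2. Again both deficient values lay between the controls, whose gap was reached by 5.26% of tested genes. The log2 fold change was 0.05 (SE 0.15, 95% interval -0.30 to 0.40, adjusted p = 0.911 in limma), and it was 0.28 without control 1 and -0.18 without control 2. Cdkn2a was 1.8 and 1.02 times the level of Cdkn2b in the controls against 1.48 and 1.40 times in the deficient libraries. Together Cdkn2a and Cdkn2b made up 83.7% and 72.8% of the summed INK4 level in the controls against 84.0% and 86.1% in the deficient libraries. That sum was 91.0 and 54.4 FPKM in the controls against 71.7 and 66.0 FPKM in the deficient libraries. Suprabasal markers, summed, were also higher in control 1 (1226 FPKM) than in control 2 (746 FPKM), and the part of this difference in the Cdkn2a and Cdkn2b values was not tested.

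Among the Cip/Kip genes, Cdkn1a encodes p21, the best known target of p53. It lies on chromosome 17, from 29090976 to 29100727 on the plus strand, and its span overlaps AC167363.2 on the opposite strand. Its level was 294 and 265.6 FPKM in the controls against 342.7 and 300.9 FPKM in the deficient libraries. Both deficient values were above both controls, by a margin between deficient library 2 and control 1 that was smaller than the gap within either group. The log2 fold change of 0.20 (SE 0.11, 95% interval -0.06 to 0.46) did not pass (adjusted p = 0.419 in limma). Cdkn1b, which encodes p27 and lies on chromosome 6 from 134920401 to 134925513 on the plus strand, was at 30.2 and 27.2 FPKM in the controls against 24.0 and 27.1 FPKM in the deficient libraries. Control 2 and deficient library 2 were almost equal, and the log2 fold change was -0.16 (SE 0.11, 95% interval -0.41 to 0.09, adjusted p = 0.493 in limma). Cdkn1a was 9.72 and 9.76 times the level of Cdkn1b in the controls against 14.3 and 11.1 times in the deficient libraries. For these 2 genes, Rb1, Rbl2 and Cdkn2d, the direction of the log2 fold change held in all 11 alternatives run, and none passed in any of them.

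The other genes of the pathway were read from 7 lists. The list of G1 and S phase cyclins and kinases held 14 genes, among them the mitotic kinase gene Cdk1 and the phosphatase gene Cdc25a. Of the 14, 2 fell and 12 did not pass, with a median log2 fold change of -0.15. The authors' deposited table called 3 lower. The D and E cyclin genes, Cdk2, Cdk4 and Cdk6 were among those that did not pass. In the list 8 genes were lower and 1 higher in both deficient libraries, and 7 had an unadjusted p under 0.05 in limma. All tested genes had shares of 24%, 24.1% and 17.4%. Cyclin A2 (Ccna2) fell to 58.5% of control, from 50.9 ± 2.65 to 29.8 ± 1.05 FPKM (log2 fold change -0.75, adjusted p = 0.0353 in limma). Cdk1 fell from 34.3 ± 1.8 to 21.5 ± 0.860 FPKM (SD, n = 2 per group; log2 fold change -0.65, adjusted p = 0.0392 in limma). The direct partners of the INK4 proteins did not pass: Cdk4 was at 145.2 and 160.5 FPKM in the controls against 129.3 and 127.1 FPKM in the deficient libraries, and Cdk6 at 14.0 and 14.7, then 14.9 and 15.4 FPKM. Cyclin D1 (Ccnd1) overlapped between the groups, at 145.7 and 178.6 FPKM in the controls against 164.4 and 155.2 FPKM in the deficient libraries. Cdk4, Ccnd1 and the cyclin D2 gene Ccnd2 (184 to 201 FPKM) each stood above the summed FPKM of the 4 INK4 genes in every library.

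Of 17 E2F, DP and DREAM genes, 0 passed in limma over all genes, 4 had an unadjusted p under 0.05, and 3 were called lower in the authors' deposited table, with 7 lower in both deficient libraries (24% of all tested genes were, and 17.4% had such an unadjusted p), 15 below a log2 fold change of 0 and a median of -0.12. Among list genes with a mean of at least 5 FPKM, the largest non-overlapping differences were those of E2f8, a repressor E2F, at 5.97 and 8.27 FPKM in the controls against 3.96 and 3.48 FPKM in the deficient libraries, a log2 fold change of -0.77 (adjusted p = 0.0668 in limma), and of Mybl2, which replaces the pocket proteins on the DREAM core in cycling cells (-0.67, adjusted p = 0.0993 in limma). Of 27 S phase genes under E2F, 2 fell and 25 did not pass, all 27 were below 0, and the median was -0.44. In both deficient libraries 24 of the 27 were lower, and 21 had an unadjusted p under 0.05 in limma. The shares of all tested genes were 24% and 17.4%. The authors' deposited table called 10 of the 27 lower. Those that fell were Mcm6, a subunit of the replicative helicase, and Uhrf1, which maintains DNA methylation, at log2 fold changes of -0.60 and -0.76 (adjusted p = 0.0482 and 0.0419 in limma). Tk1, a thymidine kinase gene, was at -0.68 and did not pass (adjusted p = 0.0752 in limma). Of 23 genes of G2 and M phase under DREAM, 12 fell and 11 did not pass, all 23 were lower in both deficient libraries, and the median was -0.68. The authors' deposited table called all 23 lower. Those that fell were Ccnb1, Plk1, Bub1, Bub1b, Cenpa, Top2a, Mki67, Kif11, Kif23, Ube2c, Foxm1 and Prc1, genes of mitotic entry, the spindle and its checkpoint, with log2 fold changes from -0.81 for Mki67 to -0.62 for Kif23 and Prc1. The kinase gene Aurkb differed by as much, at -0.81, and did not pass (adjusted p = 0.0581 in limma). The change of Rbl1, at -0.66, lay near the list median. These lists hold known cell cycle genes, and their fall was seen in these libraries before the lists were drawn up.

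**Figure D4:**
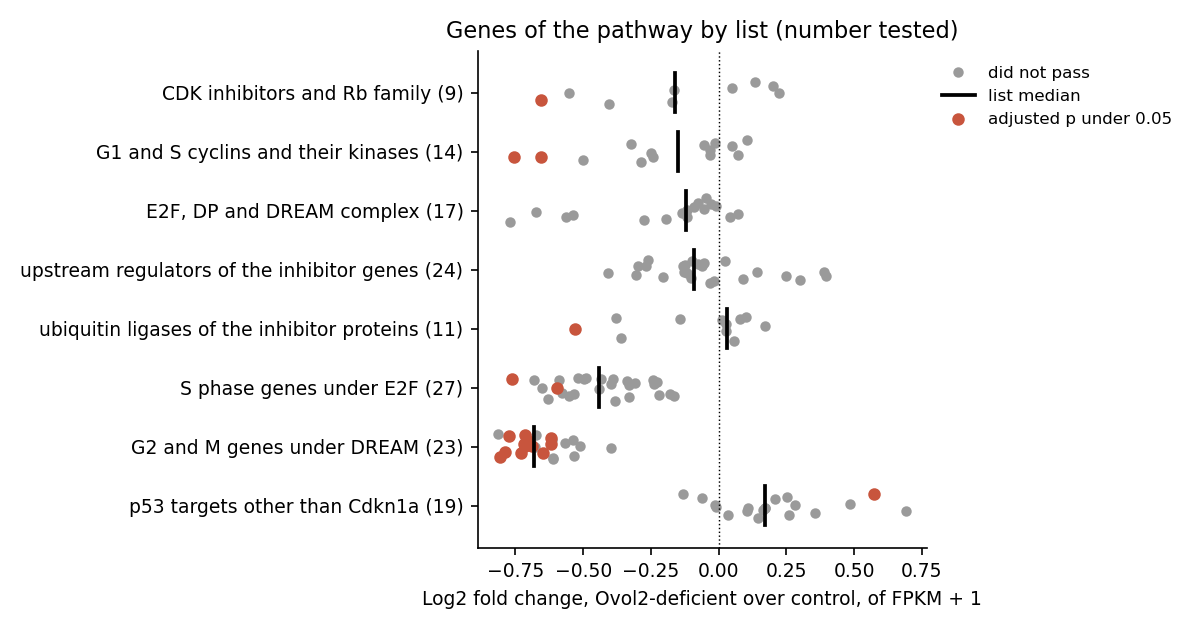
Log2 fold change of every tested gene in the 9-gene set and in 7 lists of pathway genes, with the number tested in brackets, red for an adjusted p under 0.05 and a black bar for the list median. The medians run from -0.68 for genes of G2 and M phase to 0.17 for p53 targets, and that of the CDK inhibitors and Rb family is -0.16.

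Of 11 genes of the ubiquitin ligases that degrade p21 and p27, 1 fell and 10 did not pass, with a median of 0.03, and 1 was called lower in the authors' deposited table. Cks1b, the cofactor that lets the Skp2 ligase bind p27, fell from 71.1 ± 2.40 to 48.8 ± 0.863 FPKM (SD, n = 2 per group; log2 fold change -0.53, adjusted p = 0.0466 in limma). Skp2 itself was at 5.0 and 5.53 FPKM in the controls against 4.31 and 3.48 FPKM in the deficient libraries (adjusted p = 0.234 in limma). Dtl, a substrate adaptor of the Cul4 ligase that degrades p21 in S phase, stood at -0.38 on the log2 fold change scale (adjusted p = 0.247 in limma), and the scaffold genes Cul4a and Cul1 had 0.17 and 0.08 (adjusted p = 0.371 and 0.705 in limma). Of 24 upstream regulators of the inhibitor genes 0 passed in limma, 7 had an unadjusted p under 0.05, and 1 was called higher in the authors' deposited table, with 10 lower and 4 higher in both deficient libraries and a median of -0.09. Over all tested genes the shares were 17.4% at an unadjusted p under 0.05, 24% lower and 24.1% higher. Among these, Mdm2, the ligase of p53 and itself a p53 target, had values of 75.7 and 76.9 FPKM in the controls against 101.5 and 99.9 FPKM in the deficient libraries, a log2 fold change of 0.40 (adjusted p = 0.0728 in limma). Id1, an inhibitor of helix-loop-helix factors, was at 74.3 ± 3.22 and 98.1 ± 15.3 FPKM (adjusted p = 0.163 in limma). The polycomb methyltransferase gene Ezh2, whose product represses Cdkn2a, was at 24.1 ± 0.667 and 19.4 ± 0.269 FPKM (SD, n = 2 per group; adjusted p = 0.148 in limma), and Ets2 was at 89.6 ± 9.86 and 72.6 ± 4.35 FPKM (adjusted p = 0.218 in limma).

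Of 19 p53 targets other than Cdkn1a, 1 rose and 18 did not pass, with a median of 0.17, close to the log2 fold change of Cdkn1a, and 4 were called higher in the authors' deposited table. Gadd45a, a stress gene, rose from 20.9 ± 0.722 to 31.7 ± 2.78 FPKM (SD, n = 2 per group; log2 fold change 0.58, adjusted p = 0.049994 in limma). Fas, a death receptor, had 10.4 and 7.65 FPKM in the controls against 14.2 and 15.9 FPKM in the deficient libraries, a log2 fold change of 0.69 (adjusted p = 0.0703 in limma). In this list 10 genes were higher and 0 lower in both deficient libraries, where 24.1% and 24% of all tested genes were. Trp53 overlapped between the groups, at 72.7 and 93.2 FPKM in the controls against 77.3 and 72.9 FPKM in the deficient libraries.

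Calls in these lists rested on the libraries kept, controls included. Of the 18 calls over the 7 lists with all libraries, the count in limma went to 0 without deficient library 1, 0 without deficient library 2, 3 without control 2 and 36 without control 1. With all libraries kept, the count was 0 under quantile normalization, with no filter on low values and without a variance trend. It was 3 under upper quartile scaling, 19 with a pseudocount of 0.1, 24 at a minimum mean of 5 FPKM and 32 with the replicate number as a block. With 1 library left out, the list medians ran from -0.74 to -0.58 for genes of G2 and M phase, from -0.49 to -0.35 for S phase genes and from -0.18 to -0.11 for cyclins and kinases. They ran from -0.17 (without control 1) to -0.06 (without control 2) for E2F, DP and DREAM genes, from -0.11 to -0.08 for upstream regulators, and from 0.11 (without deficient library 1) to 0.26 (without control 1) for p53 targets. The ubiquitin ligase median changed sign, from -0.01 without control 2 to 0.05 without deficient library 2.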

How the data were processed

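RNA from 4 keratinocyte libraries was amplified as full-length cDNA and tagmented with a Nextera kit, per the labels' protocols. TopHat, HTSeq and mm10 are named in the submitters' processing notes without versions, roles or order. The authors deposited FPKM values per gene and library, per the file headers. Their other table, per the file headers, compares mutant with control by a mean normalized signal, log2 fold changes and errors on that log2 scale, a score and p-values, raw and adjusted. Counts and totals per library are not in the files used here. The deposited mean signals sum to 13340000 over all rows, and counting errors taken from them cover counting alone. Mutant columns were placed in the Ovol2-deficient group by name, with the numbers of the table.

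Of 24487 rows, 27 whose symbols had become dates were dropped, and rows sharing a symbol were summed. Genes averaging at least 1 FPKM were tested on log2(FPKM + 1), which understates changes of low genes, by limma 3.58.1 (R 4.3.3) with group alone in the model and a variance trend. The fit was also run on data simulated from limma's own fitted variances, which checks the code and cannot check the model's assumptions. Alternatives were a pseudocount of 0.1, no filter and a minimum of 5, quantile and upper quartile scaling, no variance trend, a replicate block and leaving out each library. The genes and lists were chosen with earlier results of these data known. Named list genes were those called, up to 2 of the largest changes per direction at a mean of at least 5 FPKM without overlap, and Cdk4, Ccnd1, Ccnd2, Skp2 and Trp53, added after their values were seen. Nearest patterns were sought for genes with a range of at least 0.5 on the log2 scale. Gene positions are from GENCODE M21 on mm10.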

Additional observations from a re-analysis of the deposited data

How the results depend on the processing

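With 2 libraries per group the calls rest on limma's shared variance. Of 11350 genes 153 were called, and the count was 3 with no filter on low values, 267 at a minimum mean of 5 FPKM, 5 under quantile normalization, 36 under upper quartile scaling, 6 without a variance trend, 518 with the replicate block and 10 to 397 with 1 library left out (397 and 145 without controls 1 and 2, 10 and 25 without Ovol2-deficient libraries 1 and 2). Of the 9 genes 1 was called, Rbl1, and 0 were called in limma with no filter, under quantile normalization, under upper quartile scaling and without a variance trend, where its adjusted p ranged from 0.0601 to 0.224; with 1 library left out the count was 0 to 2. At an unadjusted p under 0.05 there were 2 to 5 of the 9 in these alternatives, and 3 of the 9 with the settings reported, where 17.4% of all tested genes had such a p. Cdkn2a was the other call, without control 1. With 1 library left out its log2 fold change ran from -0.49 to 0.76 and that of Cdkn2b from -0.18 to 0.28, both below 0 without control 2. Cdkn2c could not be fitted at a minimum of 5 FPKM, being under it. The difference in the log2 ratio of Rbl2 to Rbl1, 0.48, ran from 0.32 to 0.65 with 1 library left out. In the replicate block, deviations of libraries with the same number correlated at Pearson r = 0.220 across 11350 genes; they share only a number, and the block kept the call of Rbl1 (adjusted p = 0.0231 in limma) and called none of the other 8. Cdkn2c had the lowest mean normalized signal of the 9 in the authors' deposited table. The causes of these changes were not tested.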

Other observations

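Other genes with inhibitor names stand outside the 9 and were chosen after their values were seen. Cdkn1c, the imprinted Cip/Kip gene that encodes p57, was at 4.42 and 8.37 FPKM in controls 1 and 2 and at 8.44 and 5.08 FPKM in Ovol2-deficient libraries 1 and 2. Each group held a high and a low library, and the groups overlapped (log2 fold change 0.09, SE 0.29, adjusted p = 0.921 in limma). Between the controls it was lower in control 1, where Cdkn2a and Cdkn2b were higher. Cdkn3 encodes a phosphatase of Cdk2 and Cdk1 rather than an inhibitor that binds them. It stood at 12.5 and 10.9 FPKM in the controls and 6.35 and 7.44 FPKM in the deficient libraries, below both controls in each (log2 fold change -0.68, SE 0.12), and did not pass (adjusted p = 0.0531 in limma).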
